A study of Homo sapiens with 12 samples.

Results

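Integrins and the proteins that tie them to actin form focal adhesions, and 34 genes of this machinery were followed in A375 cells, a human melanoma line, that carried an empty vector or a mutant of the transcriptional co-activator YAP. The 34 genes were chosen by name, as 19 integrin subunits and 15 adhesion adaptors and kinases, from the 31585 distinct loci of the expression table. The choice was made with earlier results of these data known, so the set was not blind to them. Each gene matched exactly 1 locus. Of the 34, 31 passed the filter on low values, which asked for 1 FPKM or more in 3 or more of the 12 libraries. FPKM counts fragments scaled to transcript length and to the mapped fragments of the library. These were 16 of the 19 integrin subunits and all 15 adaptors, and 15055 loci were tested in all. ITGA8, ITGA11 and ITGB6 did not pass. ITGB2 and TNS1 passed only through libraries of YAP-S127A and YAP-2SA cells, each with 2 of the 3 YAP-S127A libraries and all 3 YAP-2SA libraries at 1 FPKM or more, so their tested differences rest in part on that filter. ITGA9 and ITGA10 passed only through groups other than YAP-2SA, with 0 YAP-2SA libraries at 1 FPKM, so the same limit holds for their falls.

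An integrin is a pair of 1 alpha and 1 beta chain that spans the membrane, binds extracellular matrix or a counter-receptor outside the cell, and recruits talin and kindlin to the beta tail inside. Talin opens to bind vinculin, paxillin and p130Cas are scaffolds for focal adhesion kinase and SRC, and integrin-linked kinase, PINCH and parvin form a complex that reaches actin. The alpha and beta chains together set the ligand: alpha 3 beta 1 and alpha 6 beta 4 bind laminins, alpha V beta 3 binds vitronectin and fibronectin, and alpha 9 beta 1 binds tenascin-C. YAP is held in the cytoplasm and degraded after phosphorylation by the LATS kinases, and in the nucleus it acts largely through the TEAD transcription factors.

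All cells were stably transduced with the retroviral vector MSCV-IRES-Hygro and selected with hygromycin. Control cells carried the empty vector. YAP-S127A cells carried YAP that escapes cytoplasmic retention, YAP-S127A,S94A cells carried the same mutant with a further change that prevents TEAD binding, and YAP-2SA cells (YAP-S127A,S381A in the sample titles) carried YAP that also escapes degradation. Each group had 3 libraries, described as separately plated cultures of 1 transduced line, so p-values measure the spread between platings and not between transductions. The labels call the cells epithelial malignant melanoma. One field for the 3 YAP-2SA libraries adds S94A, but their titles do not. Between 20161 and 20656 loci were above 0 in a library, with FPKM totals per library from 790865 to 901558. Read depth is unknown.

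YAP1, which reports the cell's own and the introduced YAP together, was at 34.1, 33.0 and 172 FPKM in the 3 Control libraries. It was at 159, 159 and 187 FPKM in YAP-S127A, at 151, 149 and 162 FPKM in YAP-S127A,S94A and at 130, 149 and 136 FPKM in YAP-2SA. The library labelled Control replicate 3 therefore stood at the level of the YAP cells for this gene. The counts against Control were repeated without it, and the genes named whose calls were lost are given beside the results. Of 9 melanoma and neural crest markers, PMEL, MLANA, TYR and DCT stayed under 1 FPKM in all libraries, and the summed level of the 9 was 1155 to 1174 FPKM in Control, 1061 to 1095 in YAP-S127A, 1186 to 1209 in YAP-S127A,S94A and 614 to 662 in YAP-2SA. SOX10, a neural crest transcription factor, averaged 263 FPKM in Control and 6.16 FPKM in YAP-2SA, and of the 5 tested 4 fell and 1 rose, MITF, from a mean of 8.59 to 35.0 FPKM. The summed level of 5 epithelial markers was 170 to 206 FPKM in Control, 362 to 391 in YAP-S127A, 176 to 182 in YAP-S127A,S94A and 1075 to 1257 in YAP-2SA. Nearly all of that was KRT18. Of the 3 tested, KRT18 and KRT5, the latter past the filter only through YAP-2SA, rose in YAP-2SA. KRT14, past the filter only through the other groups, fell there from a mean of 6.87 to 0.434 FPKM. EPCAM and CDH1 stayed under 1 FPKM throughout. The part of these markers in the results on adhesion genes was not tested. Of 4 leukocyte markers 3 stayed under 1 FPKM, and the summed level, all but entirely from the locus that CD68 shares with MPDU1, was 74.5 to 85.5 FPKM outside YAP-2SA and 107 to 116 FPKM in YAP-2SA. The 3 endothelial markers summed to 0.656 FPKM or less in every library. In these bulk cultures, fewer cells of a type and less RNA per cell cannot be told apart.

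The first comparison asked how the receptors differed between YAP-2SA cells and Control. Here 4 integrin subunits rose and 9 fell among the 16 tested, and 3 did not pass an adjusted p of 0.05. Over all loci tested, 22.9% rose and 19.5% fell. With a fold of group mean FPKM above 2 required as well, 3 subunits rose and 5 fell, against 7.59% and 7.86% of all loci. ITGB4, ITGB2, ITGA3 and ITGB1 were the 4 that rose, and ITGB2 had passed the filter only through YAP-S127A and YAP-2SA libraries. ITGB3, ITGA9, ITGB8, ITGA10, ITGA6, ITGA4, ITGB5, ITGA1 and ITGAV fell. Of these, ITGA9 and ITGA10 had passed the filter only through groups other than YAP-2SA. The median log2 difference was -0.44 for the 16 subunits and 0.01 for all loci tested. The 9 that fell and the 4 that rose were called in the same direction without Control replicate 3.

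**Figure D1:**
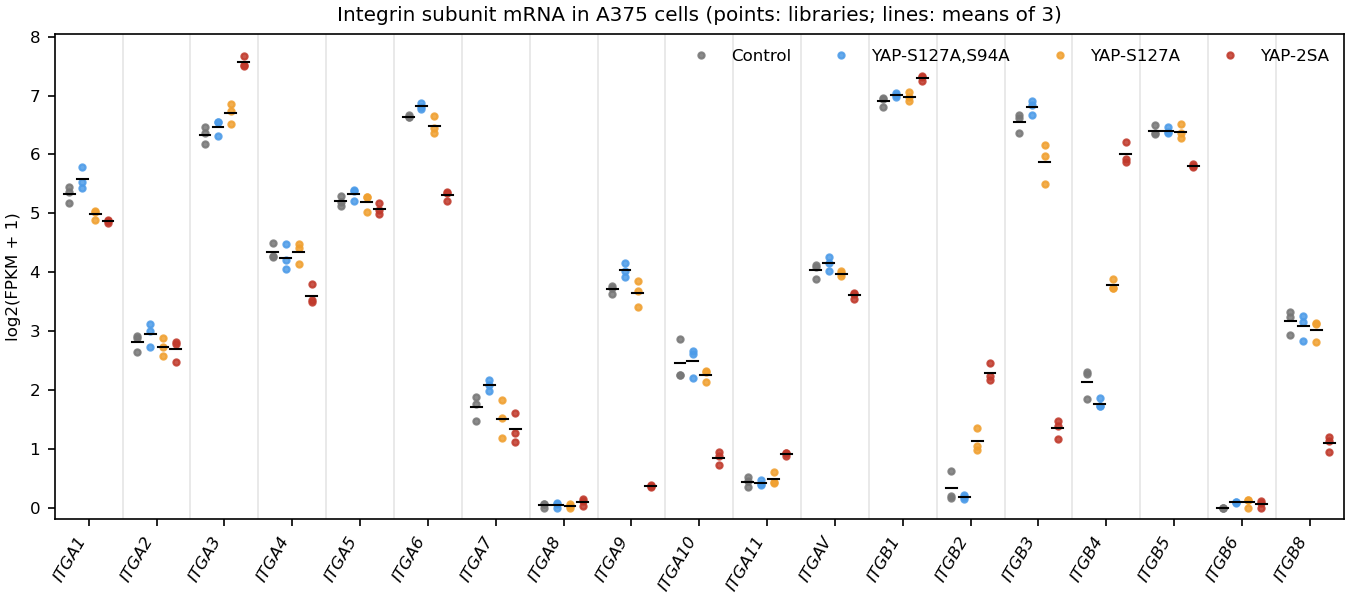
Levels of the 19 integrin subunits in the 12 libraries, with log2(FPKM + 1) on the vertical axis, 1 point per library coloured by group and a black line at the mean of 3. The YAP-2SA points of ITGB3, ITGA9, ITGB8 and ITGA6 lie below all others of their gene, and those of ITGB4 and ITGA3 above.

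ITGB3, the beta chain of the vitronectin receptor (GRCh37 chr17:45331193-45391109), had the largest difference of the 31 tested genes between YAP-2SA and Control. It was at 81.4, 97.4 and 101 FPKM in Control and at 44.3, 70.6 and 61.6 FPKM in YAP-S127A. It was at 100.3, 113 and 119 FPKM in YAP-S127A,S94A and at 1.24, 1.77 and 1.63 FPKM in YAP-2SA. Every YAP-2SA library was thus below every other library, and the YAP-S127A libraries lay below all Control libraries. The log2(FPKM + 1) difference of YAP-2SA from Control was -5.21 ± 0.16 (SE, adjusted p = 1.7e-09, limma), or 60.3-fold lower in mean FPKM. YAP-2SA also differed from YAP-S127A, by -4.53 ± 0.16 (adjusted p = 1.1e-08). The table reports ITGB3 on a locus shared with C17orf57, and reads of the 2 were not separated here.

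ITGAV, the alpha chain that pairs with ITGB3, ITGB5 and ITGB8, changed much less than ITGB3. It was at 13.8, 15.9 and 16.3 FPKM in Control and at 11.4, 10.6 and 11.4 FPKM in YAP-2SA, a log2 difference of -0.43 ± 0.08 (adjusted p = 0.00111). ITGB5 fell by 0.60 on the log2 scale (adjusted p = 3.8e-05), from a mean of 83.6 to 55.0 FPKM, on a locus that also lists the transcript AX747081. ITGB8 (chr7:20370325-20455377), whose alpha V pair is known for activating latent TGF-beta, was at 8.45, 6.58 and 8.98 FPKM in Control and at 1.29, 0.915 and 1.19 FPKM in YAP-2SA. ITGB8 was at 7.75, 7.70 and 6.03 FPKM in YAP-S127A and at 8.59, 6.10 and 7.89 FPKM in YAP-S127A,S94A, so the YAP-2SA libraries alone stood apart. Its difference from Control was -2.07 ± 0.15 (adjusted p = 1.0e-06). ITGB6, a further partner of ITGAV, was at most 0.0943 FPKM in any library and listed at 0 in the 3 Control libraries.

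Among the alpha chains, ITGA9 (chr3:37493606-37864998) was nearly lost from the YAP-2SA libraries. It was at 11.4, 12.2 and 12.5 FPKM in Control, 11.8, 13.4 and 9.61 FPKM in YAP-S127A and 16.8, 14.1 and 15.2 FPKM in YAP-S127A,S94A. In YAP-2SA it was at 0.292, 0.307 and 0.271 FPKM. No YAP-2SA library came near the others, and the YAP-S127A,S94A libraries all lay above those of Control and YAP-S127A. The difference of YAP-2SA from Control was -3.34 ± 0.11 (adjusted p = 2.2e-09) and that from YAP-S127A -3.28 ± 0.11 (adjusted p = 6.7e-09). For YAP-S127A against Control the 95% interval of the log2 difference was -0.30 to 0.17.

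ITGA10, a collagen-binding alpha chain (chr1:145524969-145543868), was likewise lowest in YAP-2SA, while its libraries of the other groups overlapped. It was at 3.77, 3.75 and 6.31 FPKM in Control, 3.36, 3.92 and 3.97 FPKM in YAP-S127A and 5.34, 3.59 and 5.12 FPKM in YAP-S127A,S94A. In YAP-2SA it was at 0.652, 0.916 and 0.840 FPKM, below every other library, with a difference from Control of -1.61 ± 0.18 (adjusted p = 3.1e-05). ITGA4, the alpha chain of a receptor for fibronectin and VCAM1, fell from a mean of 19.3 to 11.2 FPKM (log2 difference -0.74 ± 0.13, adjusted p = 0.00113). ITGA1, a collagen-binding chain whose locus also lists PELO and AK097288, fell from 39.2 to 28.1 FPKM (log2 difference -0.46 ± 0.10, adjusted p = 0.00280). ITGA4 overlaps CERKL on the opposite strand, and the strand setting of the counting is not given in the sources used here.

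The laminin-binding subunits moved in both directions. ITGA6 (chr2:173292082-173371187), which pairs with ITGB1 or ITGB4, was at 100.3, 98.4 and 98.0 FPKM in Control and at 81.5, 99.1 and 86.7 FPKM in YAP-S127A. It was at 111, 116 and 108 FPKM in YAP-S127A,S94A and at 35.8, 39.6 and 40.1 FPKM in YAP-2SA. The YAP-2SA libraries did not overlap with any other group, and the difference from Control was -1.34 ± 0.07 (adjusted p = 1.1e-07).

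ITGB4, which pairs with ITGA6 in hemidesmosomes (chr17:73717408-73753899), went the other way. It was at 3.91, 2.59 and 3.84 FPKM in Control and at 12.2, 12.3 and 13.8 FPKM in YAP-S127A. It was at 2.29, 2.61 and 2.31 FPKM in YAP-S127A,S94A and at 59.6, 72.9 and 57.3 FPKM in YAP-2SA. The order was YAP-2SA, then YAP-S127A, then Control and YAP-S127A,S94A, whose libraries overlapped. ITGB4 was 18.3-fold higher in YAP-2SA than in Control (log2 difference 3.86 ± 0.13, adjusted p = 3.3e-09) and 4.95-fold higher than in YAP-S127A (2.22 ± 0.13, adjusted p = 4.5e-07). It overlaps GALK1 on the opposite strand.

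ITGA3, the alpha chain of a laminin receptor formed with ITGB1 (chr17:48133332-48167845), was at 71.3, 81.1 and 87.1 FPKM in Control and at 90.8, 106 and 115 FPKM in YAP-S127A. It was at 78.1, 92.9 and 92.5 FPKM in YAP-S127A,S94A and at 181, 202 and 183 FPKM in YAP-2SA. The YAP-2SA libraries were above all others, and the difference from Control was 1.23 ± 0.11 (adjusted p = 4.7e-06). ITGB1, the common partner of most alpha chains and the most abundant beta chain, was at 111, 122 and 124 FPKM in Control and 158, 159 and 151 FPKM in YAP-2SA (log2 difference 0.39 ± 0.06, adjusted p = 2.5e-04). ITGB1 averaged 125 FPKM in YAP-S127A and 128 FPKM in YAP-S127A,S94A, and neither passed the test against Control.

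ITGB2, the beta chain of the leukocyte integrins (chr21:46305868-46351904), was low in all groups. It was at 0.138, 0.119 and 0.540 FPKM in Control, 1.07, 0.968 and 1.54 FPKM in YAP-S127A, 0.158, 0.134 and 0.0989 FPKM in YAP-S127A,S94A and 3.51, 4.50 and 3.70 FPKM in YAP-2SA. The difference of YAP-2SA from Control was 1.96 ± 0.15 (adjusted p = 1.6e-06). The leukocyte markers PTPRC and CD3E stayed under 1 FPKM in every library. Of the chains known to pair with ITGB2, and of the other subunits outside the 19, only ITGAE passed the filter among 7 looked up. ITGAE, which pairs with ITGB7, averaged 30.2 FPKM in Control and 32.7 FPKM in YAP-2SA and did not pass the test (adjusted p = 0.381).

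Of the subunits that did not pass the test against Control, ITGA2, a collagen receptor chain, averaged 6.05 FPKM in Control and 5.47 FPKM in YAP-2SA, with a 95% interval of the log2 difference from -0.43 to 0.17. ITGA5, the fibronectin receptor chain, averaged 35.9 and 32.7 FPKM, with an interval from -0.33 to 0.07. ITGA7 (chr12:56078352-56110188), a laminin receptor chain best known from muscle, was at 1.78, 2.67 and 2.38 FPKM in Control, 2.56, 1.26 and 1.88 FPKM in YAP-S127A, 3.21, 3.50 and 2.95 FPKM in YAP-S127A,S94A and 1.39, 2.04 and 1.16 FPKM in YAP-2SA. ITGA7 fell in YAP-2SA when set against YAP-S127A,S94A (-0.75 ± 0.18, adjusted p = 0.00657), whereas against Control the difference was -0.38 ± 0.18 (adjusted p = 0.123). ITGA7 overlaps BLOC1S1 and METTL7B, among others, on the opposite strand. Of the untested subunits, ITGA11 reached 0.909 FPKM in YAP-2SA and ITGA8 at most 0.111 FPKM in any library.

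The next question was whether the summed integrin transcripts moved as the single chains did. The 12 alpha chains summed to 314 ± 17.3 FPKM in Control and 319 ± 16.9 FPKM in YAP-2SA, and the 7 beta chains to 308 ± 21.1 and 281 ± 12.8 FPKM (SD, n = 3). The sums of the YAP-S127A,S94A cells were 351 ± 18.6 and 332 ± 12.6 FPKM, with every alpha sum above those of Control, and in YAP-S127A 316 ± 26.8 and 288 ± 19.6 FPKM. Control and YAP-2SA thus had close alpha sums of different composition. ITGA6 made up 31.6% ± 2.17 of the alpha sum in Control and 12.1% ± 0.592 in YAP-2SA. ITGA3 went from 25.4% ± 1.16 to 59.0% ± 0.820. Among the beta chains, ITGB3 was 30.3% ± 1.57 of the sum in Control and 0.551% ± 0.0917 in YAP-2SA. ITGB4 was 1.13% ± 0.270 and 22.5% ± 2.00, and ITGB1 38.7% ± 0.914 and 55.6% ± 1.29. The shares in YAP-S127A,S94A stayed near those of Control, with ITGB3 at 33.3% ± 1.64 and ITGA3 at 25.0% ± 1.12. In YAP-S127A, ITGB3 was at 20.3% ± 3.33, ITGB4 at 4.45% ± 0.374 and ITGA3 at 32.8% ± 1.99. Shares of one sum depend on each other, and no test was made on them.

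**Figure D2:**
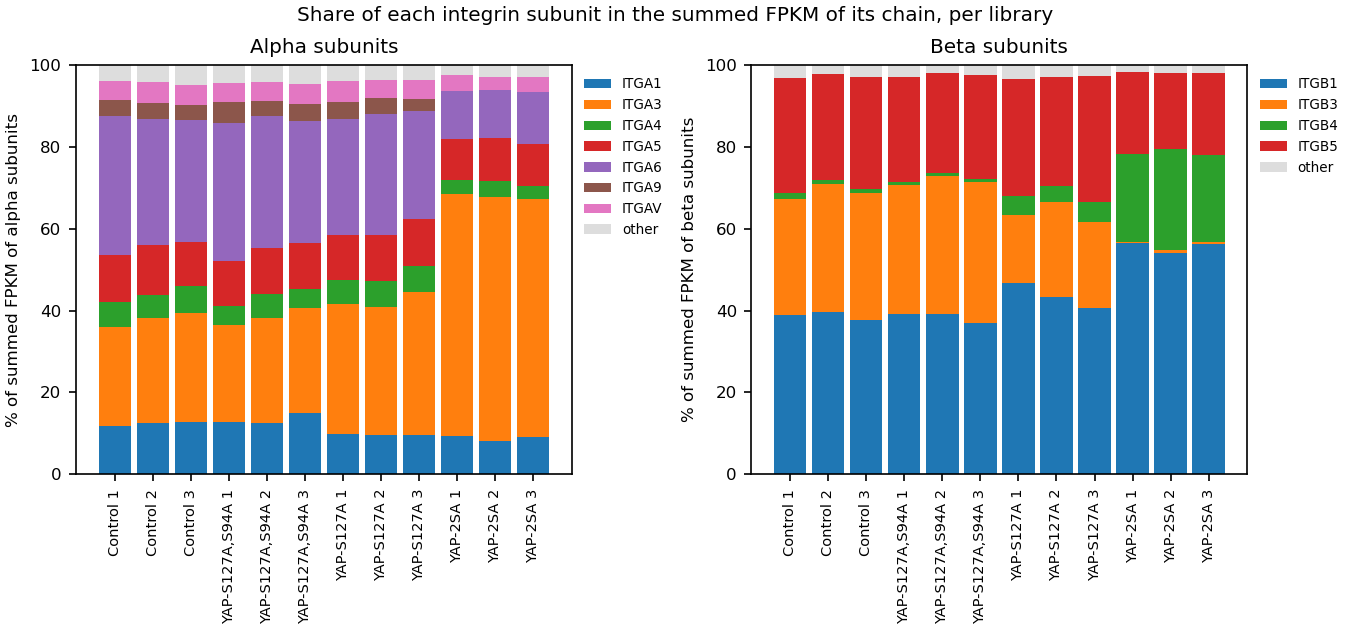
Share of each subunit in the summed FPKM of the alpha chains (left) and beta chains (right), 1 bar per library, in percent; subunits that never reach 3% of their chain are pooled as other. In the YAP-2SA bars ITGA3 takes 59.0% of the alpha sum on average, ITGB4 22.5% of the beta sum and ITGB3 0.551%.

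The adaptors that passed in YAP-2SA cells against Control were all higher. Of the 15 tested, 10 rose, none fell and 5 did not pass, against 22.9% of all loci that rose and 19.5% that fell. By unadjusted p under 0.05 the count was also 10 in all, where 7485 of the 15055 loci met that threshold. The median log2 difference of the 15 was 0.44. Of the 10 that rose, only VCL and TNS1 also passed a fold of 2, and TNS1 had passed the filter only through YAP-S127A and YAP-2SA libraries. Without Control replicate 3 the count of risen adaptors was 8, as ILK and PARVB were lost.

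VCL, or vinculin, binds opened talin and actin and reinforces adhesions under load (chr10:75754951-75881121). It was at 23.8, 23.9 and 24.5 FPKM in Control, 36.2, 35.5 and 33.9 FPKM in YAP-S127A, 24.1, 22.5 and 23.3 FPKM in YAP-S127A,S94A and 61.2, 62.2 and 60.2 FPKM in YAP-2SA. The libraries of a group differed little, and those of YAP-S127A and YAP-2SA formed separate steps above the rest. YAP-2SA was above Control by 1.31 ± 0.04 (adjusted p = 3.3e-09) and above YAP-S127A by 0.78 ± 0.04 (adjusted p = 3.3e-07). VCL overlaps AP3M1 on the opposite strand.

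TNS1, tensin 1, binds beta integrin tails and actin in fibrillar adhesions (chr2:218664311-218898705). It was at 0.149, 0.0905 and 0.347 FPKM in Control, 1.27, 0.944 and 1.09 FPKM in YAP-S127A, 0.116, 0.344 and 0.225 FPKM in YAP-S127A,S94A and 3.29, 2.97 and 3.65 FPKM in YAP-2SA. It was low everywhere, and the groups again fell in the order seen for VCL. The log2(FPKM + 1) difference of YAP-2SA from Control was 1.85 ± 0.12 (adjusted p = 4.1e-07). TNS3, the more abundant tensin, on a locus that also lists AK310472, averaged 29.4 FPKM in Control and 34.6 FPKM in YAP-2SA and did not pass (adjusted p = 0.106).

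BCAR1, or p130Cas, is a SRC substrate that is stretched at adhesions (chr16:75262079-75301951). It was at 23.3, 23.1 and 22.1 FPKM in Control, 30.4, 25.9 and 39.6 FPKM in YAP-S127A, 19.8, 24.8 and 21.1 FPKM in YAP-S127A,S94A and 48.8, 38.9 and 44.0 FPKM in YAP-2SA. The YAP-2SA and YAP-S127A libraries overlapped. The difference of YAP-2SA from Control was 0.91 ± 0.14 (adjusted p = 3.9e-04), and that from YAP-S127A,S94A was 0.97 ± 0.14 (adjusted p = 2.3e-04), the latter with a fold of 2.01. ZYX, zyxin, an actin-binding LIM protein of tense adhesions, was at 67.0, 60.5 and 66.6 FPKM in Control and 132, 116 and 115 FPKM in YAP-2SA (0.89 ± 0.07, adjusted p = 3.4e-06). It overlaps EPHA1 on the opposite strand.

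The integrin activators rose without reaching a fold of 2. TLN1, the main talin, was at 51.5, 43.7 and 53.4 FPKM in Control and 62.5, 70.9 and 69.4 FPKM in YAP-2SA (0.44 ± 0.10, adjusted p = 0.00426). TLN2, the second talin, averaged 1.76 and 3.20 FPKM (adjusted p = 3.5e-04). FERMT2, kindlin 2, went from 11.6 to 17.8 FPKM (0.58 ± 0.07, adjusted p = 9.4e-05). All 3 were higher in each YAP-2SA library than in any Control library.

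In the complex of integrin-linked kinase, PARVA, alpha-parvin, rose from a mean of 16.4 to 27.4 FPKM (0.71 ± 0.09, adjusted p = 1.1e-04). ILK was at 37.1, 42.9 and 39.9 FPKM in Control and 45.8, 51.2 and 49.1 FPKM in YAP-2SA, and passed narrowly (0.28 ± 0.09, adjusted p = 0.0236). PARVB, beta-parvin, rose from 16.3 to 20.2 FPKM (0.29 ± 0.09, adjusted p = 0.0220). Both narrow calls depended on single libraries. Without Control replicate 3 the adjusted p was 0.0556 for ILK and 0.0837 for PARVB. ILK also failed without Control replicate 1, YAP-2SA replicate 2 or YAP-2SA replicate 3, and PARVB without YAP-2SA replicate 1 or 2. LIMS1, which encodes PINCH1 and has near-identical copies in the genome, averaged 10.1 and 9.26 FPKM and did not pass. ILK overlaps TAF10 on the opposite strand and PARVB overlaps SAMM50 on the same strand.

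PTK2 and PXN, the focal adhesion kinase and its scaffold paxillin, did not pass the test. PTK2 was at 27.5, 27.7 and 29.0 FPKM in Control and 26.4, 27.1 and 25.6 FPKM in YAP-2SA, with a 95% interval of the log2 difference from -0.19 to 0.02. PXN was at 146, 150 and 151 FPKM in Control and 140, 142 and 134 FPKM in YAP-2SA, with an interval from -0.25 to 0.04. For both genes every YAP-2SA library was below every Control library, and PXN passed as lower under quantile normalization (adjusted p = 0.0130). Against YAP-S127A,S94A, PXN differed by -0.18 ± 0.07 with an adjusted p of 0.0502 and passed in 7 of 20 alternatives. LPP, a LIM protein related to zyxin, averaged 1.42 FPKM in both groups.

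**Figure D3:**
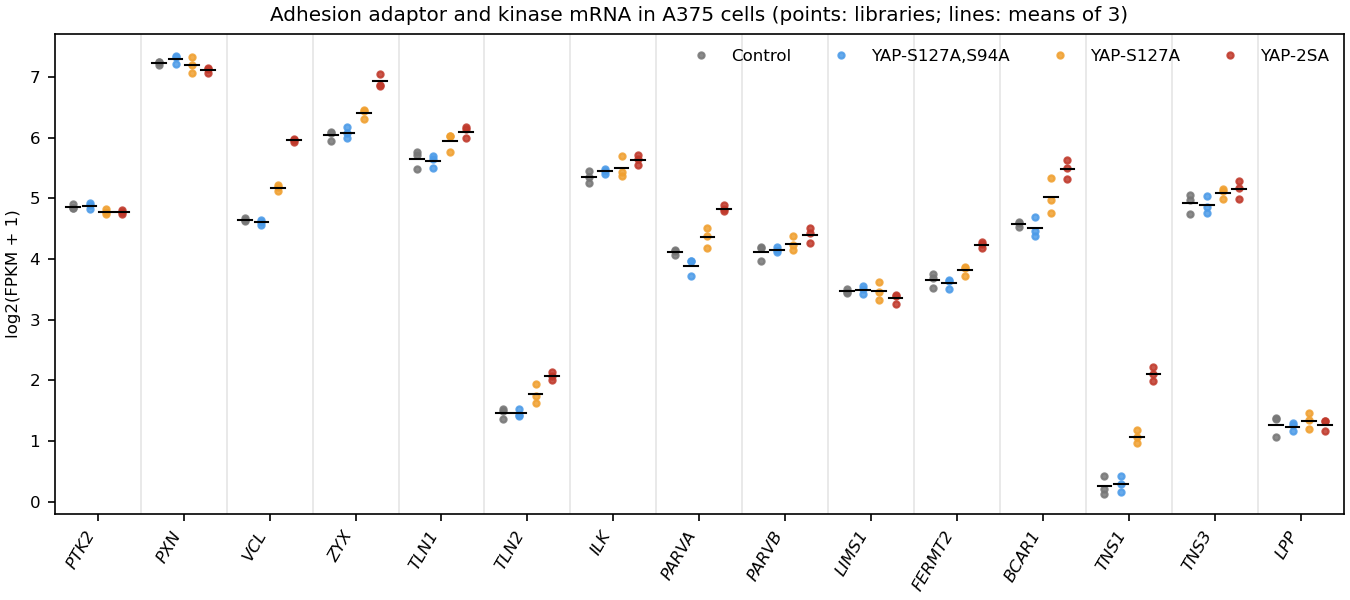
Levels of the 15 adhesion adaptors and kinases in the 12 libraries as log2(FPKM + 1), 1 point per library coloured by group, with a black line at the mean of 3. VCL, ZYX and TNS1 step up from Control to YAP-S127A to YAP-2SA, while the groups of PTK2 and LIMS1, which did not pass, lie close together.

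The second comparison asked what YAP-S127A did, and fewer genes passed. Against Control, 2 integrin subunits rose, ITGB4 and ITGB2, and 1 fell, ITGB3, while 3 adaptors rose, VCL, ZYX and TNS1, and none fell. Of all loci, 4.56% rose and 1.75% fell. With a fold above 2, the counts were 2 subunits and 1 adaptor that rose, against 2.07% of all loci that rose and 0.405% that fell. Among these, ITGB2 and TNS1 passed the filter only through YAP-S127A and YAP-2SA libraries, so the counts rest in part on that filter. ITGB4 rose by 1.64 ± 0.13 on the log2 scale (adjusted p = 3.0e-05) and ITGB2 by 0.80 ± 0.15 (adjusted p = 0.00840). VCL rose by 0.53 ± 0.04 (adjusted p = 4.4e-05), TNS1 by 0.82 ± 0.12 (adjusted p = 0.00187) and ZYX by 0.36 ± 0.07 (adjusted p = 0.0141). The difference of ITGB3 was -0.68 ± 0.16 (adjusted p = 0.0305), and without Control replicate 3 its adjusted p was 0.103. ITGB3 also failed without Control replicate 2, YAP-S127A replicate 1 or YAP-S127A replicate 3, and ZYX without Control replicate 2, YAP-S127A replicate 1 or YAP-S127A replicate 3.

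The direct comparison of the strong and the weaker mutant, YAP-2SA against YAP-S127A, gave 4 subunits that rose and 8 that fell and 7 adaptors that rose, against 18.3% and 14.5% of all loci. With a fold above 2 these were 2 and 5 subunits and 1 adaptor, against 5.17% and 5.94%. The risen ones included ITGB2 and TNS1, which passed the filter only through YAP-S127A and YAP-2SA libraries. The fallen ones included ITGA9 and ITGA10, which passed it only through groups other than YAP-2SA. Every subunit that fell against Control also fell here except ITGA1, which averaged 30.6 FPKM in YAP-S127A and 28.1 FPKM in YAP-2SA (adjusted p = 0.384). ITGA6 fell by 1.19 (adjusted p = 6.2e-07) and ITGB8 by 1.93 on the log2 scale (adjusted p = 3.2e-06). ITGA10 fell by 1.40 (adjusted p = 1.5e-04). ITGA3 rose by 0.86 ± 0.11 (adjusted p = 1.2e-04) and ITGB2 by 1.16 ± 0.15 (adjusted p = 1.4e-04). Of the adaptors, TNS1 rose by 1.04 ± 0.12 (adjusted p = 6.3e-05) and ZYX by 0.52 ± 0.07 (adjusted p = 3.1e-04). FERMT2, PARVA, TLN2 and BCAR1 passed too, the last with 0.46 ± 0.14 (adjusted p = 0.0283). TLN2 and BCAR1 failed when any of 4 single libraries was left out, and for both YAP-S127A replicate 1, YAP-2SA replicate 1 and YAP-2SA replicate 3 were among the 4. For TLN2 the other was YAP-S127A replicate 3 and for BCAR1 YAP-S127A replicate 2.

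**Figure D4:**
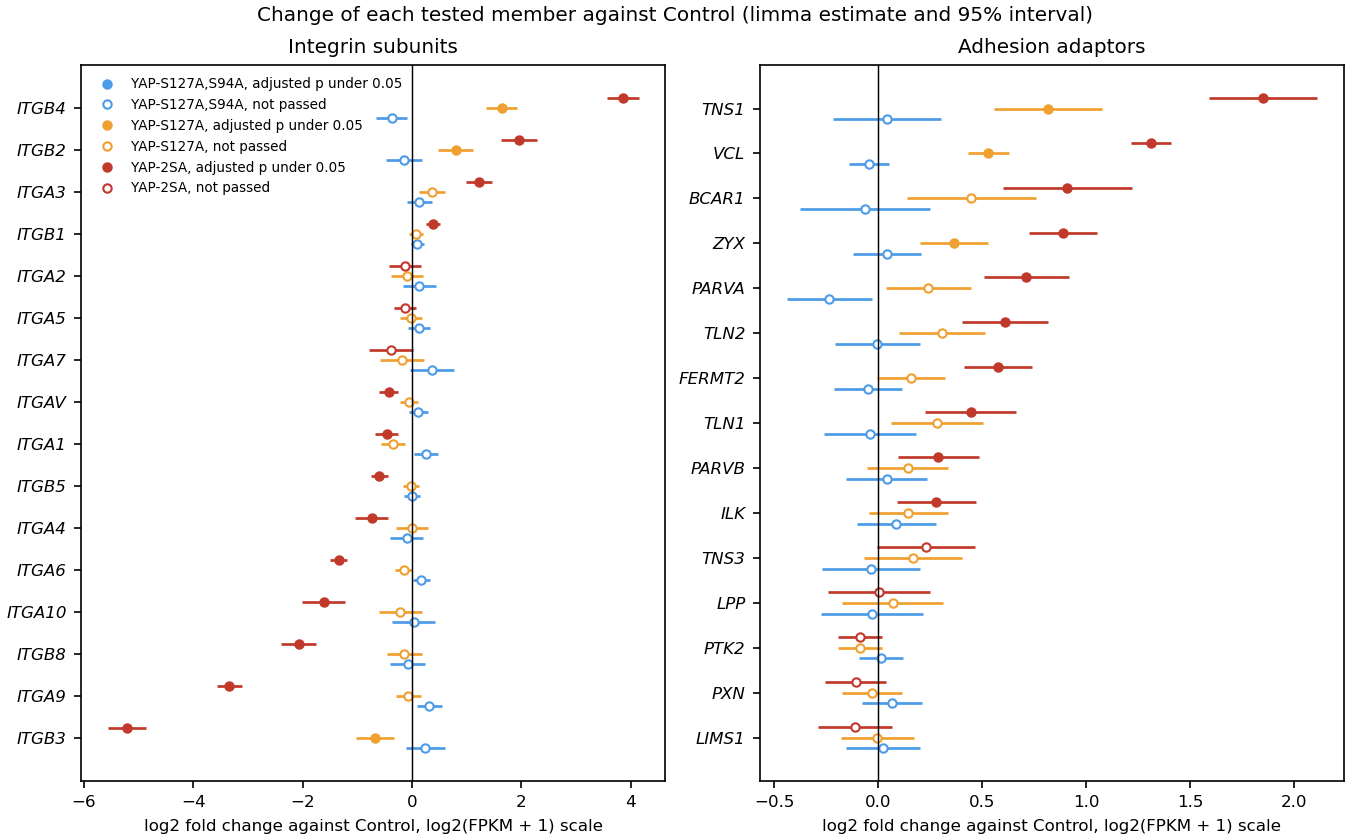
Difference of each tested gene from Control on the log2(FPKM + 1) scale (horizontal axis), integrin subunits left and adaptors right, for YAP-2SA, YAP-S127A and YAP-S127A,S94A, with 95% intervals from limma. Filled points passed an adjusted p of 0.05 and open points did not, and all YAP-S127A,S94A points are open. The 3 contrasts share the Control libraries.

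The third comparison asked whether YAP that cannot bind TEADs moved the same genes. In YAP-S127A,S94A against Control, 0 of the 16 subunits and 0 of the 15 adaptors passed (limma), where 0.0864% of all loci rose and 0.093% fell. With a fold above 2 these shares were 0.0797% and 0.093%. At an unadjusted p under 0.05, met by 661 of 15055 loci, there were 4 subunits, ITGA1, ITGA6, ITGA9 and ITGB4, and 1 adaptor, PARVA. Their log2 differences were 0.26, 0.17, 0.32, -0.37 and -0.24, with ITGB4 at a mean of 3.45 FPKM in Control and 2.40 FPKM in YAP-S127A,S94A. The 95% intervals over the subunits lay between -0.66 and 0.78, and over the adaptors between -0.44 and 0.30. The differences of ITGB3, ITGB4, ITGA9 and ITGB8 measured for YAP-2SA thus lay outside those intervals. By their titles, YAP-2SA and YAP-S127A,S94A differ in both the S381A and the S94A change, and no group combined them. ITGA9 and ITGB8 did not pass in YAP-S127A against Control either. Whether a rise or fall in YAP-2SA needs TEAD binding was not tested. The same counts of 0 were found without Control replicate 3.

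Set directly against YAP-S127A,S94A, YAP-S127A gave 11 passes where it gave 6 against Control. Of these, 2 subunits and 5 adaptors rose and 4 subunits fell, against 6.36% and 4.31% of all loci. With a fold above 2, ITGB4, ITGB2 and TNS1 rose and none fell, against 2.54% and 0.95%. Here too ITGB2 and TNS1 had passed the filter only through YAP-S127A and YAP-2SA libraries. The 4 subunits that fell were ITGB3 (-0.92 ± 0.16, adjusted p = 0.00436), ITGA1 (-0.60 ± 0.10, adjusted p = 0.00284), ITGA6 (-0.33 ± 0.07, adjusted p = 0.0159) and ITGA9 (-0.38 ± 0.11, adjusted p = 0.0433). ITGA9 failed when any 1 library other than YAP-S127A replicate 2 was left out. ITGA6 was lost without replicate 1 or 3 of YAP-S127A and without replicate 1 or 2 of YAP-S127A,S94A. ITGB4 rose by 2.02 ± 0.13 (adjusted p = 5.4e-06), ITGB2 by 0.95 ± 0.15 (adjusted p = 0.00234) and VCL by 0.57 ± 0.04 (adjusted p = 2.0e-05). TNS1, PARVA, ZYX and BCAR1 were the other adaptors that rose, of which ZYX and BCAR1 failed without replicate 1 or 3 of either group. BCAR1 failed as well without any 1 Control library, YAP-2SA replicate 1 or YAP-2SA replicate 3. The adaptor count was 3 without replicate 3 of YAP-S127A and without replicate 1 or 3 of YAP-S127A,S94A.

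In YAP-2SA against YAP-S127A,S94A, 4 subunits rose and 11 fell and 9 adaptors rose, against 23.2% and 20.3% of all loci. These groups differ by title in both the S381A and the S94A change, whose effects cannot be told apart here. With a fold above 2 the counts were 3 and 6 subunits and 3 adaptors, against 7.81% and 8.1%. The same filter limit holds for ITGB2 and TNS1 among those that rose and for ITGA9 and ITGA10 among those that fell. Only ITGA2 of the 16 subunits did not pass (adjusted p = 0.143). The 2 subunits that passed here and not against Control were ITGA7, given above, and ITGA5 (-0.25 ± 0.09, adjusted p = 0.0405). ITGA5 failed without Control replicate 3, YAP-S127A,S94A replicate 2, YAP-S127A,S94A replicate 3, YAP-2SA replicate 1 or YAP-2SA replicate 3. PARVB (adjusted p = 0.0422) failed when any 1 of 6 libraries was left out, namely YAP-S127A replicate 1, any YAP-S127A,S94A replicate, YAP-2SA replicate 1 or YAP-2SA replicate 2. ITGB4 was 26.3-fold higher (4.23 ± 0.13, adjusted p = 1.5e-09) and ITGB3 71.6-fold lower (-5.46 ± 0.16, adjusted p = 1.2e-09).

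The start sites of the adaptors and integrins were then searched for short DNA motifs, because TEADs bind DNA directly and YAP does not. The RefSeq promoter table of GRCh38.p14, a later build than that of the expression table, holds 250 bases before and 50 after each start. It matched 26 of the 34 genes, and ITGA3, ITGA7, ITGA9, ITGB2, ITGB3, ITGB4, PTK2 and PARVA were without an entry. The TEAD core GGAATG, searched on both strands, was in 9 of the 52 promoters of the 26 genes (17.3%), and in 4928 of all 35116 promoters (14%). The AP-1 motif TGANTCA, also on both strands, was in 6 of the 52 (11.5%) and in 7.71% of all. For genes that rose in YAP-2SA against Control, 4 of 20 promoters (20%) held the TEAD core, and for those that fell 1 of 11 (9.09%). The AP-1 motif was in 1 of these 20 (5%) and in 0 of these 11. Of the 26 genes 7 held the core, and ITGA5, PXN and LPP among them did not pass in YAP-2SA against Control. The windows of ITGA5 and LPP are not printed. A match describes letters only. The windows that follow show the core in capitals, read in the direction of transcription, in the genes that rose and held it (ITGB1, VCL and TNS1 at a pair of starts), in ITGA10, which fell, and in PXN, whose level did not pass.
ITGB1 (GRCh38.p14 chr10:32958377-32958442, minus strand): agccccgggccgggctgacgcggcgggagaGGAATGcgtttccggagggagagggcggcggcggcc
VCL (chr10:73997915-73997980, plus strand): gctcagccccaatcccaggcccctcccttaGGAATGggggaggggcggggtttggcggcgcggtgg
TNS1 (chr2:217944252-217944317, minus strand): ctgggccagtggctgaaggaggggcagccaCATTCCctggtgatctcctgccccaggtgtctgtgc
TNS1, other start (chr2:217920299-217920364, minus strand): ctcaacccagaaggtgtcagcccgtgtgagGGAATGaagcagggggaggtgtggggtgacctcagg
ITGA10 (chr1:145910106-145910171, minus strand): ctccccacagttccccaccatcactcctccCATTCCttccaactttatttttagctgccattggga
PXN (chr12:120250195-120250260, minus strand): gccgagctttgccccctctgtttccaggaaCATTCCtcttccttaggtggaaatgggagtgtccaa
Read this way, the core appeared as GGAATG in ITGB1, VCL and the second TNS1 window, and as its reverse complement CATTCC in the first TNS1 window, ITGA10 and PXN. Its first base lay 182, 171, 217, 98, 91 and 67 bases before the start in these 6 windows in the order printed.

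Beyond the 34 genes, 5 lists of the same pathway were looked up, chosen with earlier results of these data known. Of 30 other adhesion adaptors, 25 were tested, and in YAP-2SA against Control 14 rose, 5 fell and 6 did not pass, where 22.9% of all loci rose and 19.5% fell. Without Control replicate 3, 11 rose and 5 fell. LIMS2, PINCH2, which joins the same complex as ILK, went from a mean of 0.444 FPKM in Control to 4.96 FPKM (2.05 ± 0.09, adjusted p = 2.6e-08). LIMS2 passed the filter only through 1 YAP-S127A and 3 YAP-2SA libraries, so this difference rests in part on that filter. SORBS3, vinexin, a vinculin partner, went from 20.8 to 67.0 FPKM (1.64 ± 0.09, adjusted p = 1.6e-07). The fallen adaptors included KANK1, a talin-binding protein at the rim of adhesions, from 25.8 to 8.44 FPKM (-1.50 ± 0.06, adjusted p = 1.8e-08). NEDD9, a relative of BCAR1, went from 6.59 to 2.92 FPKM (adjusted p = 8.4e-06) and SORBS2 from 6.26 to 1.66 FPKM (adjusted p = 1.1e-05). Thus BCAR1 and NEDD9, members of the same Cas family, moved in opposite directions. In YAP-S127A against Control 6 of the 25 rose and none fell, where 4.56% of all loci rose and 1.75% fell. In YAP-S127A,S94A 0 passed, against 0.179% of all loci.

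Of 30 signalling enzymes and their partners downstream of integrins, 28 were tested, and 8 rose, 4 fell and 16 did not pass in YAP-2SA against Control, close to the 22.9% and 19.5% of all loci. Without Control replicate 3, 7 rose and 3 fell. None passed a fold of 2. ABL2, a kinase at adhesions, went from 5.66 to 11.3 FPKM (adjusted p = 2.5e-05), ASAP1, an ARF regulator, from 11.2 to 19.8 FPKM (adjusted p = 3.0e-05) and GIT1, a paxillin-binding scaffold, from 26.9 to 39.4 FPKM (adjusted p = 6.7e-04). ROCK2, a kinase that raises actomyosin tension, went from 25.4 to 19.4 FPKM (adjusted p = 0.00512), RAP1A, a small GTPase that promotes integrin activation, from 42.1 to 36.8 FPKM (adjusted p = 0.0185) and SRC from 20.1 to 16.6 FPKM (adjusted p = 0.0373). The median log2 difference of the 28 was 0.02. In YAP-S127A 1 of them rose, ASAP1, which failed without Control replicate 3, and in YAP-S127A,S94A 0 passed. Of all loci, 6.31% and 0.179% passed in these 2 groups against Control.

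Of 20 membrane partners and traffic proteins 19 were tested, and 6 rose, 3 fell and 10 did not pass in YAP-2SA against Control, where 22.9% of all loci rose and 19.5% fell. PLAUR, the urokinase receptor, which binds integrins laterally, went from 20.6 to 39.0 FPKM (adjusted p = 1.4e-06). CD9, a tetraspanin, went from 61.9 to 100.2 FPKM (adjusted p = 2.1e-05) and SLC3A2, the CD98 heavy chain that binds beta tails, from 186 to 350.3 FPKM (adjusted p = 1.3e-04). RAB4A, a GTPase of rapid recycling, went from 22.6 to 14.8 FPKM (adjusted p = 8.2e-06), CD63 from 506 to 386 FPKM (adjusted p = 0.00121) and CD47 from 34.9 to 30.6 FPKM (adjusted p = 0.0268). Without Control replicate 3 the adjusted p of CD47 was 0.083. Against Control, 0 of the 19 passed in YAP-S127A and 0 in the mutant that cannot bind TEADs. Of all loci, 6.31% and 0.179% passed in these comparisons.

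Among 20 ligands other than collagens and laminins, 11 were tested, and 5 rose and 3 fell in YAP-2SA against Control, where 22.9% of all loci rose and 19.5% fell. TNC, tenascin-C, a ligand of alpha 9 beta 1, was at 177, 193 and 205 FPKM in Control, 126.6, 167 and 163 FPKM in YAP-S127A, 213, 213 and 232 FPKM in YAP-S127A,S94A and 6.03, 6.79 and 7.01 FPKM in YAP-2SA. TNC and ITGA9 were thus both lowest in the YAP-2SA libraries, TNC with a difference from Control of -4.66 ± 0.10 (adjusted p = 2.7e-10). TGFBI, a matrix protein with integrin-binding sites, went from 96.7 to 48.6 FPKM (adjusted p = 9.6e-06) and FN1, fibronectin, from 14.7 to 7.07 FPKM (-0.87 ± 0.28, adjusted p = 0.0293). Without Control replicate 3 the difference of FN1 was -0.52 ± 0.21 and did not pass (adjusted p = 0.082). EDIL3, a ligand of alpha V beta 3 and alpha V beta 5, rose from 0.584 to 7.03 FPKM (2.36 ± 0.16, adjusted p = 5.6e-07). ADAM15 rose from 42.4 to 82.4 FPKM (adjusted p = 2.3e-06) and FBLN5, an elastic fibre protein, from 0.396 to 1.59 FPKM (adjusted p = 4.6e-05). EDIL3 passed the filter only through the YAP-S127A and YAP-2SA libraries and FBLN5 only through YAP-2SA, so their differences rest in part on that filter. In YAP-S127A, EDIL3 and ADAM15 rose and none fell, against 4.56% and 1.75% of all loci. In YAP-S127A,S94A 0 of the 11 passed, against 0.179% of all loci.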

How the data were processed

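RNA from 12 A375 libraries, 3 in each of 4 groups, was sequenced by the authors. Per the labels, reads were handled with bcl2fastq 2.15.0, Bowtie2 2.0.0, TopHat2 2.0.4 and Cufflinks 2.0.2 on hg19. The authors deposited 1 table of log2(FPKM + 1) values per gene locus, which carries no read counts, so depth is unknown and multi-mapped reads cannot be traced. How strand was handled is not given in the sources used here. Of 31588 entries, 3 identical ones were removed. The paper and the records differ on the hours of culture before lysis.

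The deposited log2 values of the 12 libraries went into 1 limma fit (version 3.58.1, R 4.3.3) with a mean for each group and a trend of variance with intensity. Loci entered if 3 or more libraries had 1 FPKM or more. The pseudocount of 1 understates fold changes of low genes. P-values were adjusted over all 15055 loci by Benjamini and Hochberg in each of 6 comparisons, and rose, fell and passed refer to an adjusted p under 0.05. Folds are ratios of group mean FPKM. The fit was tested on simulated data. An exact test of 3 against 3 cannot go below p = 0.1 and was not used.

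The 34 genes and the pathway and marker lists were chosen with earlier results of these data known. Every member was accounted for. Those with an adjusted p under 0.05 and a fold above 2 in any comparison were given in every library. ITGB1, ITGAV, PTK2, PXN, VCL, ZYX, TLN1 and ILK were described whatever their result, other members that passed in YAP-2SA against Control were given briefly, and untested members by their highest FPKM. From each pathway list up to 3 risen and 3 fallen genes with the smallest p in YAP-2SA against Control were named, except that a few list genes are not reported here, and YAP1 checked the vectors. GENCODE for GRCh37 gave the gene coordinates, and Python 3.11.15 with matplotlib 3.10.9 drew the figures. Over all tested loci, same-numbered deviations from the group means showed little pairing, with correlations from -0.149 to 0.163 over 18 pairs. Single members did move with the replicate number. ITGA2, ITGA3, ITGA5 and ITGB3 were lowest in replicate 1 of every group, and TNS3 and LPP in replicate 2. Alternatives were another pseudocount, other filters, scalings and thresholds, fewer libraries, the replicate block and no trend.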

Additional observations from a re-analysis of the deposited data

How the results depend on the processing

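The counts of subunits and of adaptors that passed stayed within 1.5 times the main value under a pseudocount of 0.1, no filter, a filter in all 12 libraries, median-ratio scaling, quantile normalization and no intensity trend, and no called gene changed sign in any alternative. A fold above 2 as an added condition, which by construction can only lower a count, gave 8 subunits and 2 adaptors in YAP-2SA against Control, 1 adaptor in YAP-S127A against Control, 7 subunits and 1 adaptor in YAP-2SA against YAP-S127A, 2 subunits and 1 adaptor in YAP-S127A against YAP-S127A,S94A, and 9 subunits and 3 adaptors in YAP-2SA against YAP-S127A,S94A. Fitting only the 6 libraries compared gave 1 subunit in YAP-S127A against Control, where ITGB2 (adjusted p = 0.0761), ITGB3 and ZYX failed, and 3 adaptors in YAP-S127A against YAP-S127A,S94A. An adjusted p under 0.01 also gave 3 adaptors there, and leaving out 1 library gave 3 to 5. With the replicate number as a block, 5 subunits passed in YAP-S127A against Control, ITGA1 and ITGA3 being added. The block also added TNS3 in YAP-2SA against Control (adjusted p = 0.0136). ITGA2 was added in YAP-2SA against YAP-S127A,S94A (adjusted p = 0.0128), among others. It removed ITGA9 and BCAR1 in YAP-S127A against YAP-S127A,S94A and PARVB in YAP-2SA against YAP-S127A,S94A. Replicate numbers showed little pairing over all loci, though some members followed them. Of the 23 calls in YAP-2SA against Control, 21 passed in every alternative in which the gene was tested. So did 3 of 6 in YAP-S127A against Control and 17 of 19 in YAP-2SA against YAP-S127A. The same held for 6 of 11 in YAP-S127A against YAP-S127A,S94A and for 22 of 24 in YAP-2SA against YAP-S127A,S94A. ITGA9, ITGA10, ITGB2, ITGB8 and TNS1 were not tested under the filter in all 12 libraries. The stricter thresholds are not among these alternatives. PXN, which did not pass, was lower under quantile normalization in YAP-2SA against Control. The causes were not tested. Summing several rows of a gene gave no value, because no member has more than 1. Without read counts, the precision of low genes such as ITGB2, TNS1 and ITGA7 is known only from the spread of 3 libraries.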
